A study of Mus musculus with 12 samples.

Results

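The glucocorticoid receptor, its feedback genes and the metabolic genes that set glucose and energy use in B cell leukemia were followed by RNA expression in mouse pre-B cells. The rule named 8 genes by symbol, namely Nr3c1, Txnip, Tsc22d3, Cnr2, Fkbp5, Stk11, Prkaa1 and Arrdc4, and 7 of them were among the 12151 genes with values. Arrdc4 was not analysed here. No measured value entered the choice of symbols, although earlier results of these data were known when the rule was written.

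RNA-seq was performed on 12 libraries of BCR-ABL1 transformed pre-B cells to ask how stabilized β-catenin acts on gene expression with and without the Ikaros factors. All cells derived from bone marrow of Ctnnb1Ex3fl/+ mice aged 6 to 12 weeks, were first grown in IL-7, then transduced with the BCR-ABL1 oncogene and grown without IL-7. Exon 3 of Ctnnb1 encodes the phosphorylation sites that mark β-catenin for degradation, so its excision by Cre from the floxed allele leaves a stabilized protein. The 4 groups of 3 libraries were ERT2 WT (ERT2 vector, sgNTC guides), Cre-ERT2 WT (Cre-ERT2 vector, sgNTC), ERT2 KO (ERT2 vector, sgIkzf1 Ikzf3 guides) and Cre-ERT2 KO (Cre-ERT2 vector, sgIkzf1 Ikzf3 guides).

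Every group was thus transformed with BCR-ABL1, carried 1 floxed and 1 unaltered Ctnnb1 allele before Cre acted, had passed through Cas9 editing, and was sorted for GFP from the vector. Day 1 after 4-hydroxytamoxifen (4-OHT), the ligand of ERT2, was taken as the time point of all 12 libraries, the ERT2 controls included. The sources give this day for the chromatin experiments, and whether it holds for the RNA libraries is not stated. The edited lines were grown from single cells, so a difference between KO and WT cannot be told apart from a difference between clones. A change with β-catenin is, below, a difference of Cre-ERT2 from ERT2 libraries of the same background. It cannot be told apart from a difference made by Cre or by the separate vectors. Whether the replicates of a group were separate lines, cultures or days is not stated, so p-values measure only the spread between these libraries, which may be technical.

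Values are normalized log2 levels as made by the authors, and a difference of group means is therefore a log2 difference. The transformation and the sequencing depth are unknown, and compressed low values would understate changes of weakly expressed genes. A gene is called where limma, fitted across all 12151 genes, gave an adjusted p under 0.05. RNA of Ikzf1, 1 of the targeted genes, was 1.01 log2 units higher (SE 0.018, limma adjusted p = 1.93e-13) in the ERT2 libraries labelled KO than in ERT2 WT, while Ikzf3 was lower by a log2 difference of -0.65 (SE 0.043, limma adjusted p = 5.23e-08). The RNA alone does not show whether protein was lost. The authors report that western blots of their edited clonal lines verified the loss of the Ikaros factors. Directions below are stated for the libraries labelled KO. Replicates of a group correlated at r of 0.999 or more, no libraries held identical values, and library medians ran from 9.06 to 9.11.

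All 13 pre-B cell markers had values, and their summed log2 level was 17.24 to 17.26 in ERT2 WT, 17.28 to 17.30 in Cre-ERT2 WT, 16.72 to 16.73 in ERT2 KO and 16.68 to 16.69 in Cre-ERT2 KO. At baseline 9 of these 13 markers were called lower and 2 higher in the libraries labelled KO (84.6%, against 59% of all genes), and with Cre-ERT2 10 were lower and 2 higher (92.3%, against 58.9%). With β-catenin 5 were lower and 3 higher in WT, and 6 lower and 2 higher in the libraries labelled KO. This was 61.5% in each, against 11.9% and 12.6% of all genes. These shares depended on single libraries. Leaving out each library in turn gave 5 to 8 called markers in WT and 3 to 8 in the libraries labelled KO. Of 9 myeloid markers only Itgam and Lyz2 had values, of 8 T cell markers only Cd5, and of 6 stromal and 6 erythroid markers none. The summed log2 level of the myeloid pair was 7.57 to 7.62 in the WT groups and 8.45 to 8.76 in the libraries labelled KO. This pair moved in opposite directions at baseline, Lyz2 from a mean of 7.41 to 8.40 and Itgam from 4.66 to 4.51, and the sum follows Lyz2. With β-catenin Cd5 rose from a range of 6.65 to 6.67 to one of 7.09 to 7.24 in WT, and from 6.77 to 6.83 to 7.76 to 7.88 in the libraries labelled KO, in which Txnip and Tsc22d3 were called lower. In bulk RNA, fewer cells of a type and less RNA per cell cannot be told apart, and the part of these markers in the results below was not tested.

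The glucocorticoid receptor, encoded by Nr3c1, is held ready in the cytoplasm by heat shock chaperones and moves to the nucleus once bound by hormone, where it acts on genes such as Tsc22d3 and Fkbp5. In B cell precursors this pathway is known for cell death under glucocorticoid drugs, which are a mainstay of leukemia treatment. Txnip limits glucose uptake and binds thioredoxin, the kinase LKB1 (Stk11) activates AMPK, whose α1 catalytic subunit is encoded by Prkaa1, and CB2 (Cnr2) is a cannabinoid receptor of immune cells. Of these, Nr3c1, Txnip and Cnr2 have been described as gatekeepers that restrict glucose and energy supply in B-lineage cells.

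Nr3c1 (ENSMUSG00000024431) lies on the minus strand of chromosome 18 from 39410545 to 39519421 in GRCm38. Its normalized log2 level was 11.45, 11.49 and 11.40 in the ERT2 WT libraries and 11.46, 11.54 and 11.52 in the Cre-ERT2 WT libraries. In the libraries labelled KO it was 11.04, 11.00 and 11.06 with ERT2, and 11.02, 11.08 and 11.04 with Cre-ERT2. All 6 libraries labelled KO thus lay below all 6 WT libraries, and the vector groups overlapped within each background.

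At baseline Nr3c1 fell by 0.41 on the log2 scale (SE 0.030, limma adjusted p = 1.35e-07), from a mean of 11.44 ± 0.044 (SD, n = 3) to 11.03 ± 0.034 (SD, n = 3). Read as plain log2 values this is a change of -24.8%, and 10.6% of all genes differed by at least as much in either direction. With Cre-ERT2 it fell by 0.46 (SE 0.030, limma adjusted p = 4.46e-08), between other libraries. The exact 2-sided permutation test gave p = 0.1 in both, the smallest value that 3 against 3 libraries allow. The call held in each of the 22 alternatives tried, with log2 differences of -0.44 to -0.39 at baseline and -0.49 to -0.43 with Cre-ERT2.

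β-catenin stabilization was followed by no called change of Nr3c1. The log2 difference was 0.062 in WT (95% interval -0.0044 to 0.13, limma adjusted p = 0.236) and 0.015 in the libraries labelled KO (-0.052 to 0.081, limma adjusted p = 0.821). The difference between these effects was -0.047 (-0.14 to 0.047, limma adjusted p = 0.646). Neither interval of the β-catenin effect reached the size of the KO against WT difference.

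**Figure D1:**
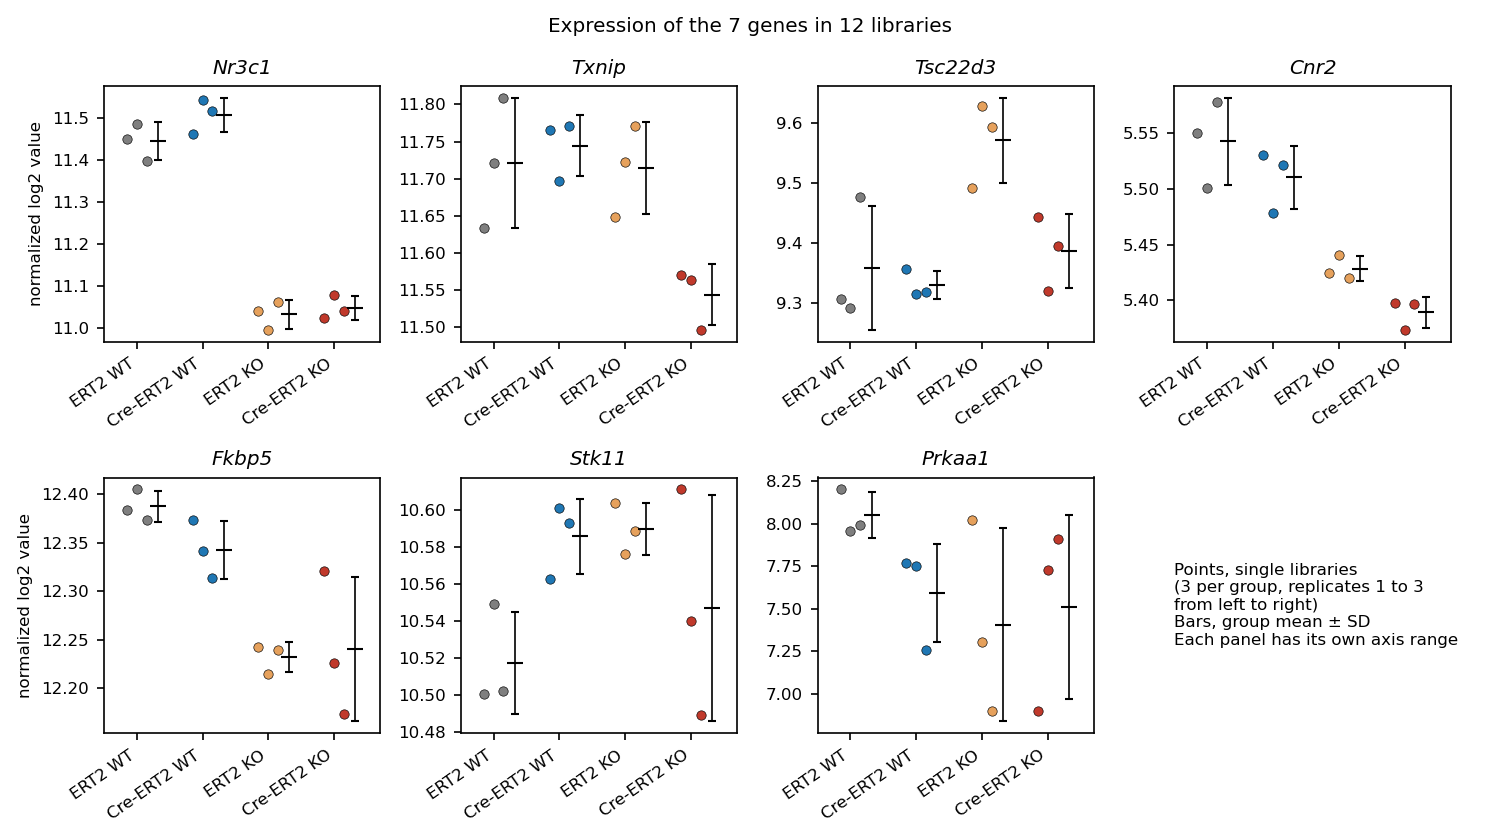
Normalized log2 level (vertical axes, each panel with its own range) of the 7 genes in the 12 libraries, with 1 point per library in the 4 groups and bars for the group mean ± SD (n = 3). Nr3c1 lies at 11.00 to 11.08 in the libraries labelled KO and at 11.40 to 11.54 in WT, whereas the Prkaa1 libraries of 1 group spread over up to 1.12 log2 units.

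The plot of levels by library shows that the receptor's RNA split cleanly by background, while its feedback genes did not follow 1 direction. Tsc22d3 (ENSMUSG00000031431) encodes GILZ, a leucine zipper protein that carries part of the anti-inflammatory action of glucocorticoids. It lies on the minus strand of chromosome X from 140539528 to 140600659, and its RefSeq start sites are far apart. The bases upstream of a pair of its start sites are printed from RefSeq sequence of GRCm38.p6, minus strand, because 1 holds a glucocorticoid receptor core motif (TGTTCT, on either strand) and the other an Ikaros core motif (TGGGAA, on either strand). The capitals mark the motif.
Tsc22d3, chrX:140600523-140600772: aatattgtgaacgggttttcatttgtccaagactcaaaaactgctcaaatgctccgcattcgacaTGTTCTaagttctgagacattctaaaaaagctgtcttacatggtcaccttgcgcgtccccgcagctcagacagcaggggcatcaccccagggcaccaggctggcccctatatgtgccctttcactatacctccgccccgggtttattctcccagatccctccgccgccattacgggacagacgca
Tsc22d3, chrX:140542669-140542918: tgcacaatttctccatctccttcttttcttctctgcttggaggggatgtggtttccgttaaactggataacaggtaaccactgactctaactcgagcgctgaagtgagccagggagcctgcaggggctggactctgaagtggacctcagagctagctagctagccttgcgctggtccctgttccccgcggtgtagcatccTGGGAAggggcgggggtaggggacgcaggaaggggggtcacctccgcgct

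The receptor core lies at -185 to -180 and the Ikaros core at -50 to -45 from the respective start site. Short motifs of this kind are common, since 16.1% of the 32851 RefSeq promoters held TGTTCT and 21.6% held TGGGAA in the 250 bases before the start. The palindrome of both receptor cores, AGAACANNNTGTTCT, which contains TGTTCT, was found in 0.00913% of promoters and in none of the 9 promoters of the 6 genes that had an entry. A match is a run of letters and not evidence of binding. The shorter Ikaros core GGGAA, which the authors name, was not searched or marked.

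The log2 level of Tsc22d3 was 9.31, 9.29 and 9.48 in ERT2 WT and 9.36, 9.31 and 9.32 in Cre-ERT2 WT. It was 9.49, 9.63 and 9.59 in ERT2 KO and 9.44, 9.32 and 9.40 in Cre-ERT2 KO. The 3 ERT2 KO libraries stood above every other library, and the remaining groups overlapped.

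In the ERT2 libraries labelled KO, Tsc22d3 rose by 0.21 log2 units (SE 0.051, limma adjusted p = 0.00323), opposite in direction to the receptor gene. With β-catenin it then fell by 0.18 log2 units in these cells (SE 0.051, limma adjusted p = 0.0344), and the KO against WT difference with Cre-ERT2 was 0.056 (95% interval -0.056 to 0.17, limma adjusted p = 0.371). Both called changes rest on the same 3 ERT2 KO libraries and are not independent of each other. The fall with β-catenin was not called without ERT2 KO replicate 2 (limma adjusted p = 0.132) or 3 (0.103), without Cre-ERT2 KO replicate 2 (0.120) or 3 (0.0697), or in a fit to the ERT2 KO and Cre-ERT2 KO groups alone (0.0622). In WT the difference with β-catenin was -0.028 (-0.14 to 0.083), and the β-catenin effects of the backgrounds differed by -0.16 (-0.31 to 0.0016, limma adjusted p = 0.294).

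Fkbp5 (ENSMUSG00000024222) encodes FKBP51, a co-chaperone that receptor activity induces and that in turn lowers the receptor's affinity for hormone. The gene lies on the minus strand of chromosome 17 from 28399094 to 28517527. Its log2 level was 12.38, 12.41 and 12.37 in ERT2 WT and 12.37, 12.34 and 12.31 in Cre-ERT2 WT. It was 12.24, 12.21 and 12.24 in ERT2 KO and 12.32, 12.23 and 12.17 in Cre-ERT2 KO. The ERT2 groups did not overlap, while replicate 1 of Cre-ERT2 KO lay among the Cre-ERT2 WT libraries.

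Fkbp5 fell by 0.16 log2 units in the ERT2 libraries labelled KO (SE 0.032, limma adjusted p = 0.00111), in the same direction as Nr3c1 and opposite to Tsc22d3. With Cre-ERT2 the fall was 0.10 (SE 0.032, limma adjusted p = 0.0151). That second call was lost without Cre-ERT2 WT replicate 1 (limma adjusted p = 0.0611) or Cre-ERT2 KO replicate 3 (0.0631), after quantile normalization (0.0511), and in a fit to the Cre-ERT2 groups alone (0.0558). With β-catenin the log2 difference was -0.045 in WT (95% interval -0.11 to 0.025) and 0.0082 in the libraries labelled KO (-0.062 to 0.078).

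Txnip (ENSMUSG00000038393) lies on the plus strand of chromosome 3 from 96557957 to 96561883. It encodes an α-arrestin that promotes removal of glucose transporters from the cell surface, and it is itself induced by glucose through Mondo-Mlx factors at carbohydrate response elements. The 250 bases before its start site are shown from RefSeq sequence of GRCm38.p6, plus strand, because they hold such an element, marked by capitals.
Txnip, chr3:96557707-96557956: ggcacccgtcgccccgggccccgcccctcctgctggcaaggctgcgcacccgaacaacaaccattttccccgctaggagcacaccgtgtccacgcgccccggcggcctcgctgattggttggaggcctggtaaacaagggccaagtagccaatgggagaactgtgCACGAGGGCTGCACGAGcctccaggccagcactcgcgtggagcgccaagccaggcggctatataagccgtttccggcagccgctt

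The element lies at -85 to -69 and matches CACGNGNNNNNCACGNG, a pair of E-box-like elements 5 bases apart, where N is any base. The pattern was searched on both strands and occurred in 15 of 32851 promoters (0.0457%). The plain E-box CACGTG, which the longer pattern can contain, occurred in 6.02% of promoters and at -169 to -164 of the Fkbp5 promoter. None of the patterns searched here was found in the upstream bases of Stk11 or Prkaa1.

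Txnip had log2 levels of 11.63, 11.72 and 11.81 in ERT2 WT and of 11.77, 11.70 and 11.77 in Cre-ERT2 WT. The levels were 11.65, 11.72 and 11.77 in ERT2 KO and 11.57, 11.56 and 11.50 in Cre-ERT2 KO. The 3 Cre-ERT2 KO libraries lay below every other library, and the other 3 groups overlapped.

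With β-catenin, Txnip fell by 0.17 log2 units in the libraries labelled KO (SE 0.044, limma adjusted p = 0.0243), a change of -11.1% if the values are plain log2. It was lower by a log2 difference of -0.20 in Cre-ERT2 KO than in Cre-ERT2 WT (SE 0.044, limma adjusted p = 0.00167), which held in all 22 alternatives (-0.23 to -0.16). Both differences use the same 3 Cre-ERT2 KO libraries. The first was not called without ERT2 KO replicate 2 (limma adjusted p = 0.0762), ERT2 KO replicate 3 (0.0977) or Cre-ERT2 KO replicate 3 (0.0832).

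In WT the β-catenin effect on Txnip was 0.023 (95% interval -0.073 to 0.12), and at baseline KO and WT differed by -0.0073 (-0.10 to 0.089). The β-catenin effects differed between backgrounds by -0.19 (-0.33 to -0.058), with an unadjusted p of 0.00902 from limma and an adjusted p of 0.115, so a different response in the backgrounds was not called. It was called without ERT2 WT replicate 3 (-0.24, limma adjusted p = 0.0438).

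Cnr2 (ENSMUSG00000062585) lies on the plus strand of chromosome 4 from 135895394 to 135920207 and encodes the CB2 receptor, which couples to inhibitory G proteins. The bases before its second RefSeq start site are shown (GRCm38.p6, plus strand) because they hold both an Ikaros core, read as TTCCCA at -180 to -175 since it lies on the opposite strand, and a TCF core (CTTTGAA) at -209 to -203. Capitals mark both.
Cnr2, chr4:135911430-135911679: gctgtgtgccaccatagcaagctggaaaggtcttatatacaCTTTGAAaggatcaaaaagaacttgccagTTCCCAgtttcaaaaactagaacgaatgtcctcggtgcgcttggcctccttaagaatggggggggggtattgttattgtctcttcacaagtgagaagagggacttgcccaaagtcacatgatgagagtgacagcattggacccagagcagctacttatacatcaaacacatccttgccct

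The TCF core CTTTGAA occurred in 4.46% of promoters and its variant CTTTGAT in 3.21%, and the latter was absent from the promoters of these genes. Cnr2 had log2 levels of 5.55, 5.50 and 5.58 in ERT2 WT and 5.53, 5.48 and 5.52 in Cre-ERT2 WT. The levels were 5.42, 5.44 and 5.42 in ERT2 KO and 5.40, 5.37 and 5.40 in Cre-ERT2 KO. All libraries labelled KO lay below all WT libraries, and the Cre-ERT2 KO libraries lay below the ERT2 KO libraries.

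Cnr2 fell by 0.11 log2 units at baseline (SE 0.022, limma adjusted p = 6.81e-04) and fell by 0.12 with Cre-ERT2 (SE 0.022, limma adjusted p = 4.36e-04) in the libraries labelled KO. Both calls held in the 21 alternatives that gave a value, although adding 64 to the unlogged value brought the log2 differences to -0.047 and -0.049. With β-catenin the log2 difference was -0.033 in WT (95% interval -0.081 to 0.016) and -0.039 in the libraries labelled KO (-0.088 to 0.0090, limma adjusted p = 0.302). The latter was not called although these groups did not overlap.

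**Figure D2:**
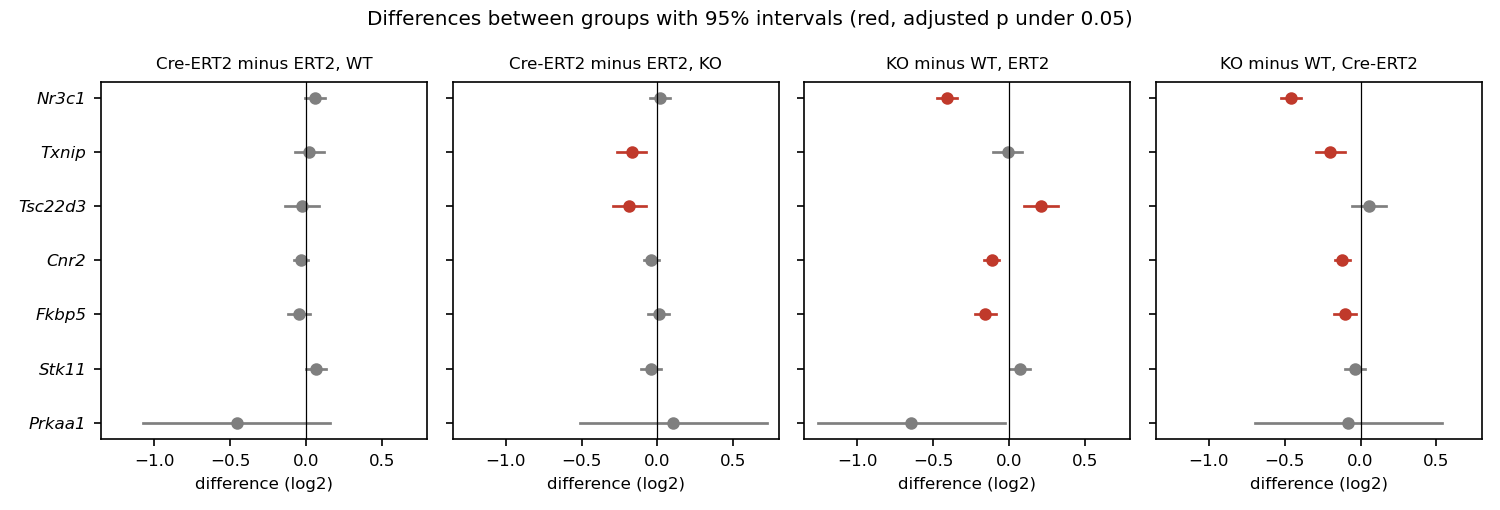
Log2 differences (horizontal axes) of the 7 genes in the 4 group comparisons, with 95% intervals from limma and red where the adjusted p was under 0.05. In both KO against WT comparisons Nr3c1, Cnr2 and Fkbp5 lie below 0, and the intervals of Prkaa1 span more than 1 log2 unit.

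Stk11 (ENSMUSG00000003068), on the plus strand of chromosome 10 from 80115803 to 80130682, encodes LKB1, the upstream kinase of AMPK. Its log2 level was 10.50, 10.55 and 10.50 in ERT2 WT and 10.56, 10.60 and 10.59 in Cre-ERT2 WT. It was 10.60, 10.58 and 10.59 in ERT2 KO and 10.61, 10.54 and 10.49 in Cre-ERT2 KO. The ERT2 WT libraries lay below those of Cre-ERT2 WT and of ERT2 KO without overlap, and the Cre-ERT2 KO libraries spanned the range of the other groups.

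No difference of Stk11 was called. The log2 difference was 0.073 at baseline (95% interval 0.0070 to 0.14, limma adjusted p = 0.0549) and 0.069 with β-catenin in WT (0.0031 to 0.13, limma adjusted p = 0.180), and these share the ERT2 WT libraries. The baseline difference was called in 6 alternatives, among them without ERT2 WT replicate 2 (limma adjusted p = 0.0427), Cre-ERT2 KO replicate 1 (0.0235) or Cre-ERT2 KO replicate 3 (0.0278), and after quantile normalization (0.0193). With Cre-ERT2 the KO against WT difference was -0.039 (-0.10 to 0.027) and was called without Cre-ERT2 KO replicate 1 (-0.071, limma adjusted p = 0.0438) and after median centring (-0.073, 0.0466). In the libraries labelled KO the β-catenin effect was -0.043 (-0.11 to 0.023), and it differed from that in WT by -0.11 (-0.20 to -0.019, limma unadjusted p = 0.0223, adjusted p = 0.193).

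Prkaa1 (ENSMUSG00000050697), on the plus strand of chromosome 15 from 5143861 to 5181899, encodes the α1 catalytic subunit of AMPK, the sensor of low cellular energy. Its log2 level was 8.20, 7.96 and 7.99 in ERT2 WT and 7.77, 7.75 and 7.26 in Cre-ERT2 WT. It was 8.02, 7.30 and 6.90 in ERT2 KO and 6.90, 7.73 and 7.91 in Cre-ERT2 KO. Replicates of ERT2 KO spanned 1.12 log2 units and those of Cre-ERT2 KO 1.01, so that single libraries labelled KO lay both near the WT level and far below it.

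This spread is unlike that of the other genes. The SD within groups, pooled over the 4 groups, was 0.423 log2 units for Prkaa1, against a median of 0.0438 among the 1143 genes with a mean log2 level within 0.5 of its own, and 99.65% of those genes had a smaller SD. For Txnip the share with a smaller SD was 86.8% and for Tsc22d3 83.32%, and for the other 4 genes it lay between 37.51% and 68.26%. After removal of the group means, Zfp35 (r = 0.9223), Riok1 (r = 0.8901) and Zcchc10 (r = 0.8807) deviated most like Prkaa1 over the 12 libraries, with SDs of 0.033, 0.020 and 0.043. These genes were chosen after their values were seen.

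**Figure D3:**
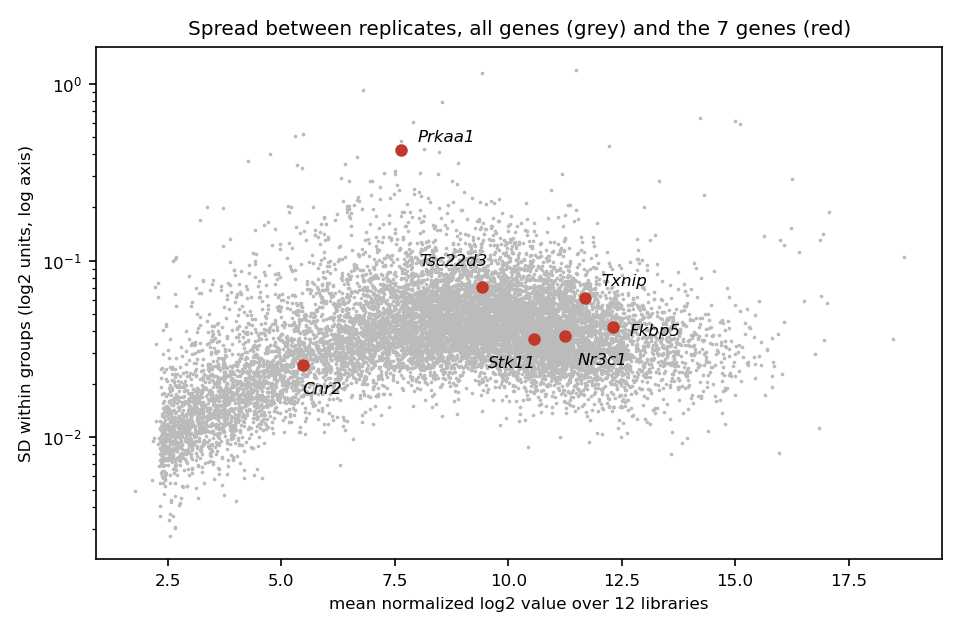
Pooled SD within groups (vertical axis, log2 units on a log axis) against mean normalized log2 level (horizontal axis) for all 12151 genes in grey and the 7 genes in red. Prkaa1 at 0.423 stands far above the band of genes of similar level, and the other 6 genes lie within it.

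With that error no comparison of Prkaa1 was called. The log2 difference was -0.64 at baseline (95% interval -1.26 to -0.028, limma adjusted p = 0.0679) and -0.46 with β-catenin in WT (-1.07 to 0.16, limma adjusted p = 0.362), where the groups did not overlap. It was 0.11 with β-catenin in the libraries labelled KO (-0.51 to 0.72) and -0.081 between the backgrounds with Cre-ERT2 (-0.70 to 0.53). The baseline result depended on the libraries and the scaling used. It was called without ERT2 KO replicate 1 (-0.95, limma adjusted p = 0.00851) and after quantile normalization (-0.71, 0.0486). It was also called without Cre-ERT2 KO replicate 1 (-0.64, 0.0316), a library outside that comparison that enters the shared estimate of the spread.

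Set against all genes, the 7 members were called about as often as the table as a whole in the KO against WT comparisons. At baseline 4 of 7 were called (Nr3c1, Cnr2 and Fkbp5 lower, Tsc22d3 higher) where 59% of all genes were, 29.8% higher and 29.3% lower. With Cre-ERT2 4 of 7 were called, all lower (Nr3c1, Txnip, Cnr2 and Fkbp5), where 58.9% of all genes were, 30.4% higher and 28.6% lower. Without overlap between groups were 5 of 7 members at baseline (65.5% of all genes) and 3 of 7 with Cre-ERT2 (63.6%). Under median centring the split of all called genes at baseline moved from 3616 higher and 3559 lower to 2866 and 4747, and with Cre-ERT2 from 3688 and 3473 to 2983 and 4789, while 4 and 5 members were called and no called member changed sign. Quantile normalization gave 3370 higher and 3906 lower genes at baseline, with 2 members higher and 4 lower. With Cre-ERT2 it gave 3411 higher and 3986 lower genes, with 0 members higher and 3 lower.

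With β-catenin in WT limma called none of the 7 members, where 11.9% of all genes were called, 5.93% higher and 5.95% lower, and 1 member (Stk11) had an unadjusted p under 0.05, as had 24.9% of all genes. In the libraries labelled KO 2 of 7 were called, both lower (Txnip and Tsc22d3), where 12.6% of all genes were, 7.27% higher and 5.33% lower. Of the members, 2 did not overlap between the WT groups (Stk11 and Prkaa1, 31.1% of all genes) and 3 between the groups labelled KO (Txnip, Tsc22d3 and Cnr2, 28.3% of all genes). The count of 2 became 0 without ERT2 KO replicate 2, ERT2 KO replicate 3 or Cre-ERT2 KO replicate 3, and 1 without Cre-ERT2 KO replicate 2. For the difference of the β-catenin effects limma called no member, against 4.53% of all genes, and 2 of 7 (Txnip and Stk11) had an unadjusted p under 0.05, as had 17.3% of all genes. The WT and KO β-catenin comparisons share no library with each other, but each shares its control with the baseline comparison.

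Over the 12 libraries, the levels of Nr3c1 ran closest to those of Zfp706 (Pearson r = 0.9973), Desi1 (0.9928) and Cog5 (0.9924), among genes with a mean log2 level above 8. For Fkbp5 the nearest were Nup214 (0.953), Srebf2 (0.9529) and Cfap43 (0.9461), and for Cnr2 Pmf1 (0.9793), Acsbg1 (0.9739) and Tnfsf11 (0.9705). Tsc22d3 ran closest to Dyrk4 (0.9155), Inppl1 (0.8957) and Slc2a9 (0.8929). The libraries share the split by background, so such values describe these libraries only. Txnip ran closest to Sik3 (0.886), a kinase downstream of LKB1, Trpv2 (0.8858) and Rmnd5b (0.881), Stk11 to Dcbld1 (0.893), Tmem72 (0.8288) and Eps15l1 (0.8231), and Prkaa1 to Pfdn6 (0.8999), Rps13 (0.8197) and Dcun1d2 (0.8163).

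The genes that the receptor is known to induce were described by a list of 24, of which 22 had values, Tsc22d3 and Fkbp5 among them. At baseline 8 were higher and 12 lower in the libraries labelled KO, and with Cre-ERT2 7 were higher and 12 lower, which is 90.9% and 86.4% of the list against 59% and 58.9% of all genes. The median log2 difference was -0.12 in both, against 0.0016 for all genes. Errfi1 and Cebpd, named after their values were seen, count among the higher genes of both comparisons at low mean levels of 3.52 and 3.64. Their log2 differences at baseline were 0.075 and 0.085. Metallothioneins, which bind metal ions, rose most, with log2 differences at baseline of 1.89 for Mt2 (SE 0.049, limma adjusted p = 5.23e-12) and 1.37 for Mt1 (SE 0.034, limma adjusted p = 3.18e-12).

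Socs1, which restrains cytokine signaling, fell by 1.37 log2 units at baseline (SE 0.069, limma adjusted p = 3.03e-09) and fell by 1.28 with Cre-ERT2 (SE 0.069, limma adjusted p = 6.27e-09). Its level was 8.83 to 9.03 in ERT2 WT and 7.36 to 7.64 in ERT2 KO, without overlap. Mt2 ran from 9.13 to 9.30 in ERT2 WT and from 11.06 to 11.15 in ERT2 KO. The list therefore moved in both directions, as did its members Tsc22d3 and Fkbp5.

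With β-catenin in WT, 6 of these 22 genes were called, all higher, and in the libraries labelled KO 3 were higher and 3 lower (27.3% of the list in each case, against 11.9% and 12.6% of all genes). Cxcr4, a chemokine receptor that keeps precursor cells in the marrow, rose by 0.29 in WT (SE 0.022, limma adjusted p = 3.12e-06) and by 0.54 in the libraries labelled KO (SE 0.022, limma adjusted p = 6.20e-09). Nfkbia, the inhibitor of NF-κB, rose by 0.18 (SE 0.033, limma adjusted p = 0.00317) and the antiproliferative gene Btg1 by 0.17 (SE 0.034, limma adjusted p = 0.00565) in WT. The WT count of 6 was not kept in any fit without 1 library, where it was 4 to 5. It was 4, all higher, under median centring and under quantile normalization. In the libraries labelled KO Mt2 fell by 0.19 (SE 0.049, limma adjusted p = 0.0271), a call lost without any of the ERT2 KO libraries or Cre-ERT2 KO replicate 1 or 3. The count of 6 in these cells became 2 without ERT2 KO replicate 2 or Cre-ERT2 KO replicate 1, and 3 without ERT2 KO replicate 1 or 3 or Cre-ERT2 KO replicate 3.

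All 20 chaperones and cofactors of the receptor on a list had values. At baseline 7 were higher and 6 lower, and with Cre-ERT2 8 were higher and 7 lower, which is 65% and 75% of the list against 59% and 58.9% of all genes, with medians of 0.013 and -0.015. Median centring turned the first to -0.019, so the sign of that median depended on the scaling. Smarca4, the ATPase of a chromatin remodeling complex that assists the receptor, fell by 0.45 at baseline (SE 0.021, limma adjusted p = 1.16e-09) and fell by 0.49 with Cre-ERT2 (SE 0.021, limma adjusted p = 4.60e-10). The coactivator Ncoa2 fell by 0.40 at baseline (SE 0.037, limma adjusted p = 1.09e-06), and the methyltransferase Carm1 rose by 0.29 with Cre-ERT2 (SE 0.021, limma adjusted p = 8.73e-08).

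With β-catenin 2 of these 20 genes were higher and 2 lower in WT, and 4 were higher and 1 lower in the libraries labelled KO (20% and 25%, against 11.9% and 12.6% of all genes). Smarca4 rose in both backgrounds, by 0.24 (SE 0.021, limma adjusted p = 9.85e-06) and by 0.20 (SE 0.021, limma adjusted p = 4.05e-05). In WT the acetyltransferase Crebbp rose by 0.28 (SE 0.062, limma adjusted p = 0.00966) and the receptor's immunophilin Fkbp4 fell by 0.14 (SE 0.026, limma adjusted p = 0.00390). In the libraries labelled KO Ncoa2 rose by 0.29 (SE 0.037, limma adjusted p = 2.02e-04) and the co-chaperone Dnaja1 by 0.15 (SE 0.021, limma adjusted p = 3.87e-04). The WT count of 4 became 7 without Cre-ERT2 KO replicate 1, a library outside that comparison that enters the shared estimate of the spread.

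Of 16 α-arrestin, Mondo-Mlx, thioredoxin and glucose transporter genes 14 had values, Txnip among them. At baseline 5 were higher and 5 lower (median -0.017, which turned to 0.0075 under quantile normalization), and with Cre-ERT2 3 were higher and 5 lower, which is 71.4% and 57.1% of the list against 59% and 58.9% of all genes. The split depended on the scaling, with 4 higher and 7 lower at baseline and 3 and 9 with Cre-ERT2 under median centring, and 4 and 3 at baseline under quantile normalization. Slc2a1, the main glucose transporter of dividing blood cells and a target of Txnip's action, rose by 1.05 log2 units at baseline (SE 0.040, limma adjusted p = 2.22e-10) and by 0.99 with Cre-ERT2 (SE 0.040, limma adjusted p = 3.66e-10). Its level was 10.68 to 10.75 in ERT2 WT and 11.70 to 11.86 in ERT2 KO. Slc2a3, another glucose transporter, rose by 0.72 (SE 0.042, limma adjusted p = 1.31e-08) and by 0.64 (SE 0.042, limma adjusted p = 3.68e-08). The mitochondrial peroxidase Prdx3 rose by 0.24 at baseline (SE 0.023, limma adjusted p = 1.50e-06), and Mlxip, which encodes MondoA, fell by 0.29 with Cre-ERT2 (SE 0.027, limma adjusted p = 1.27e-06).

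With β-catenin 1 of these 14 genes was higher and 2 lower in WT, and 3 were lower in the libraries labelled KO (21.4% in each, against 11.9% and 12.6% of all genes). Thioredoxin reductase Txnrd1 fell by 0.13 in WT (SE 0.037, limma adjusted p = 0.0394) and fell by 0.27 in the libraries labelled KO (SE 0.037, limma adjusted p = 4.25e-04), and its mitochondrial relative Txnrd2 fell by 0.17 in the latter (SE 0.039, limma adjusted p = 0.0135). In WT the α-arrestin Arrdc3 rose by 0.15 (SE 0.044, limma adjusted p = 0.0419) and mitochondrial thioredoxin Txn2 fell by 0.11 (SE 0.027, limma adjusted p = 0.0144). The calls in WT were each lost in some of the fits without 1 library. Arrdc3 and Txnrd1 were each lost in 7 of 12 fits without 1 library, every ERT2 WT library among them, and Txn2 without ERT2 WT replicate 2 or Cre-ERT2 WT replicate 1. The WT count of 3 became 0 without ERT2 WT replicate 2 and 1 without ERT2 WT replicate 1 or 3, Cre-ERT2 WT replicate 1 or 2, or Cre-ERT2 KO replicate 2. The count of 3 in the libraries labelled KO became 1 without ERT2 KO replicate 2, and Txnrd2 was not called without ERT2 KO replicate 2 or 3.

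**Figure D4:**
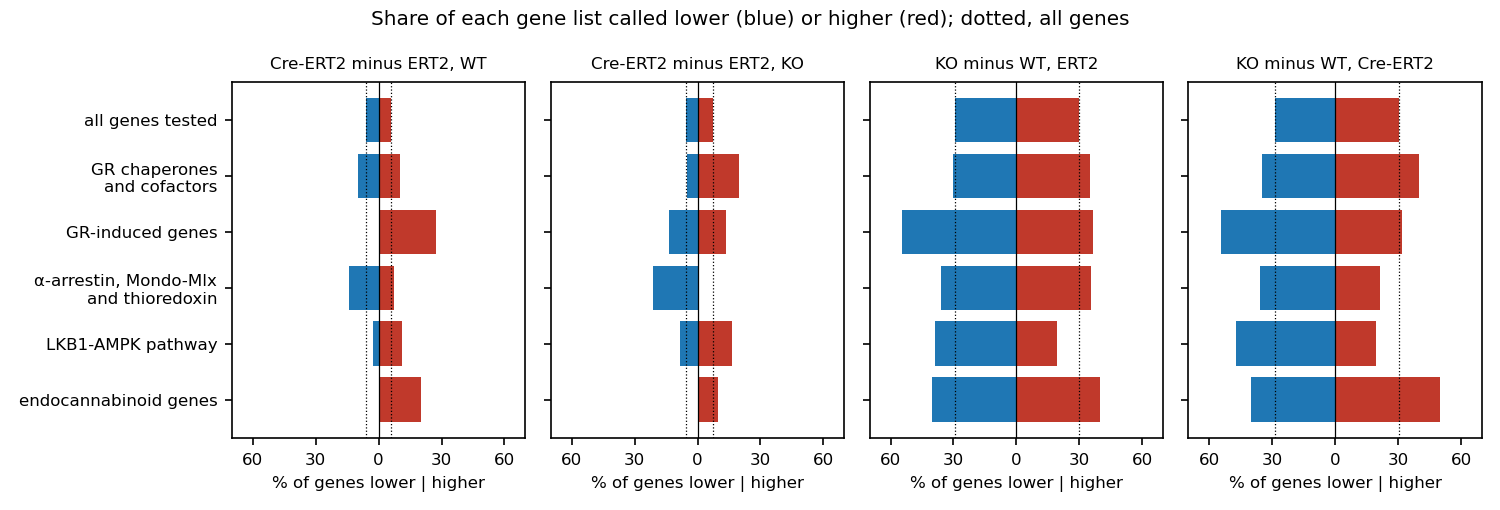
Share of each gene list called lower (blue, to the left) or higher (red, to the right) in the 4 group comparisons, in percent of the list's genes with values, with dotted lines at the shares of all genes. The receptor-induced genes were called in 90.9% at baseline, split between both directions, and the LKB1-AMPK list leaned to lower values in both KO against WT comparisons.

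The plot of list shares shows each list beside all genes. In the LKB1-AMPK list, 36 of 37 genes had values, with Stk11 and Prkaa1 among them. At baseline 7 were higher and 14 lower, with a median of -0.053, and with Cre-ERT2 7 were higher and 17 lower, with a median of -0.088, and the sign of both medians held under the other scalings. In these comparisons 58.3% and 66.7% of the list were called, against 59% and 58.9% of all genes, of which 29.3% and 28.6% were lower.

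The AMPK-related kinase Nuak1, a target of LKB1, fell by 0.45 log2 units at baseline (SE 0.034, limma adjusted p = 1.47e-07) and fell by 1.21 with Cre-ERT2 (SE 0.034, limma adjusted p = 1.02e-11). Among the sestrins, stress genes that act on AMPK and mTOR, Sesn3 fell by 0.48 (SE 0.073, limma adjusted p = 1.09e-04) and Sesn2 rose by 0.43 (SE 0.027, limma adjusted p = 2.95e-08) at baseline. With Cre-ERT2 the AMPK γ2 subunit gene Prkag2 fell by 0.55 (SE 0.054, limma adjusted p = 1.87e-06), and Stradb, an adaptor of LKB1, rose by 0.46 (SE 0.037, limma adjusted p = 3.33e-07).

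The other AMPK subunits, chosen after their values were seen, had pooled SDs within groups of 0.027 (Prkaa2), 0.040 (Prkab1), 0.014 (Prkab2), 0.071 (Prkag1) and 0.075 (Prkag2) log2 units, against 0.423 for Prkaa1. At baseline Prkab1 fell by 0.14 (limma adjusted p = 0.00317), Prkag1 fell by 0.27 (5.84e-04) and Prkag2 fell by 0.40 (3.86e-05), while Prkab2 rose by 0.19 (9.25e-06), each also called without any single library. Prkaa2, the α2 subunit, had a baseline difference of -0.020 (limma adjusted p = 0.546). It fell with β-catenin by 0.11 in WT (limma adjusted p = 0.0146) and fell by 0.21 in the libraries labelled KO (1.76e-04). The WT call was lost without ERT2 WT replicate 2 or Cre-ERT2 WT replicate 2, where the adjusted p reached 0.0642.

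With β-catenin 4 of the 36 LKB1-AMPK genes were higher and 1 lower in WT, and 6 were higher and 3 lower in the libraries labelled KO (13.9% and 25%, against 11.9% and 12.6% of all genes). Nuak1 rose by 1.16 in WT (SE 0.034, limma adjusted p = 5.50e-10) and by 0.40 in the libraries labelled KO (SE 0.034, limma adjusted p = 6.16e-06). Mtor, the growth kinase that AMPK restrains, rose by 0.31 (SE 0.033, limma adjusted p = 5.72e-05) and by 0.29 (SE 0.033, limma adjusted p = 9.57e-05). Sesn1 rose by 0.14 in WT (SE 0.034, limma adjusted p = 0.0172), lost without ERT2 WT replicate 1 or 2 or Cre-ERT2 WT replicate 1. Sesn3 rose by 0.29 in the libraries labelled KO (SE 0.073, limma adjusted p = 0.0218), lost without ERT2 KO replicate 1 or 2 or Cre-ERT2 KO replicate 2 or 3. The WT count of 5 became 3 without ERT2 WT replicate 2.

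Of 13 endocannabinoid genes 10 had values, Cnr2 among them. At baseline 4 were higher and 4 lower, and with Cre-ERT2 5 were higher and 4 lower, which is 80% and 90% of the list against 59% and 58.9% of all genes, with medians of 0.055 and 0.024 that turned to -0.011 and -0.031 under quantile normalization, the latter also to -0.0096 under median centring. With Cre-ERT2 3 rather than 5 were higher under either of these scalings. Dagla, named after its values were seen, had the lowest level of the 10 genes. Its mean log2 level was 2.72 in both WT groups, 2.78 in ERT2 KO and 2.76 in Cre-ERT2 KO, a small shift at a low level. Phospholipase C β2 (Plcb2) rose by 0.78 at baseline (SE 0.030, limma adjusted p = 1.91e-10) and by 0.69 with Cre-ERT2 (SE 0.030, limma adjusted p = 6.31e-10). Mgll, which degrades the ligand arachidonoylglycerol, rose by 0.34 (SE 0.029, limma adjusted p = 5.83e-07) and by 0.31 (SE 0.029, limma adjusted p = 1.16e-06). Gnai2, a G protein subunit that CB2 uses, fell by 0.32 (SE 0.020, limma adjusted p = 3.62e-08) and fell by 0.38 (SE 0.020, limma adjusted p = 6.43e-09).

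With β-catenin 2 of the 10 genes were called in WT, both higher, and 1 in the libraries labelled KO (20% and 10%, against 11.9% and 12.6% of all genes). Napepld, an enzyme of anandamide synthesis, rose by 0.19 in WT (SE 0.028, limma adjusted p = 6.78e-04) and by 0.11 in the libraries labelled KO (SE 0.028, limma adjusted p = 0.0238). The latter call was lost without ERT2 KO replicate 1 or 2 or Cre-ERT2 KO replicate 2 or 3. Gnai3 rose by 0.069 in WT (SE 0.019, limma adjusted p = 0.0324), lost without any of the 6 WT libraries and under either other scaling. The WT count of 2 became 1 without any of those 6 libraries, and the count of 1 in the libraries labelled KO became 0 without ERT2 KO replicate 2 or Cre-ERT2 KO replicate 2 or 3.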

How the data were processed

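RNA-seq of 12 libraries (4 groups of 3) was analysed from 1 table. The deposited values are log2 expression levels that the authors normalized between libraries, with Salmon 1.4.0, STAR 2.7.6 and DESeq2 1.30.1 and the mm10 (GRCm38) build named in their methods and processing notes. Libraries were prepared with a stranded mRNA kit from 280 ng of RNA with 10 PCR cycles. The log transformation, the filter on genes and the depth are not given in the sources used here, so no counting error can be stated. Columns of the authors' own comparisons (fold changes and p-values) were not used. limma 3.58.1 (R 4.3.3) was fitted to the 4 group means over all 12151 genes, with the variance prior following the mean level. Each of 5 contrasts received Benjamini-Hochberg adjusted p-values over all genes, with calls at an adjusted p under 0.05. The steps were run on simulated data with 200 genes changed in Cre-ERT2 WT and with spreads shuffled between genes. Such data do not test the mean-dependent prior, or comparisons in which most genes change. Exact permutation tests were 2-sided.

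The members and gene lists were chosen with earlier results of these data known, so the lists give no independent support. Besides the members, the text names the 3 called genes of each list with the largest change per comparison, 2 for the difference of effects, and the 3 genes most correlated with each member. A gene that this rule also names is not reported here. Alternatives were a mean of at least 8, pseudocounts of 1 and 64, median centring, quantile normalization, constant and robust priors, only the groups compared, a replicate block, an adjusted p under 0.01 and leaving out each library.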

Additional observations from a re-analysis of the deposited data

Results flagged for a closer look

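For 7 genes of the 5 pathway lists the β-catenin effect differed between the libraries labelled KO and WT by limma's test of the difference itself, and no member was among them. Nuak1, the AMPK-related kinase, gave the widest gap of these, with a difference of effects of -0.758 log2 units (SE 0.048, limma adjusted p = 2.04e-06). Its mean log2 level went from 7.11 to 8.27 with β-catenin in WT and from 6.66 to 7.06 in the libraries labelled KO. The chemokine receptor gene Cxcr4 showed the opposite, with a difference of 0.248 (SE 0.031, limma adjusted p = 5.91e-04), as its mean rose from 12.03 to 12.32 in WT and from 11.49 to 12.03 in the libraries labelled KO. Both calls held without any single library and under both other scalings.

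The other 5 calls were each lost in some or most of the fits without 1 library. Camkk2, a kinase upstream of AMPK that was named after its values were seen, differed by 0.148 (limma adjusted p = 0.0178), lost without ERT2 WT replicate 1, Cre-ERT2 WT replicate 3 or ERT2 KO replicate 2. Txnrd2 differed by -0.258 (limma adjusted p = 0.0208), lost without ERT2 WT replicate 1, Cre-ERT2 WT replicate 3 or ERT2 KO replicate 2 or 3. Txn2 differed by 0.153 (limma adjusted p = 0.0398), lost without any 1 of 10 libraries, all but ERT2 KO replicate 2 and Cre-ERT2 KO replicate 3. The chaperone gene Hspa8 differed by 0.152 (limma adjusted p = 0.0311), lost without any 1 of 10 libraries, all but ERT2 KO replicate 1 and Cre-ERT2 KO replicate 1, and lost under quantile normalization (limma adjusted p = 0.503). Foxo1, a transcription factor that AMPK and Akt act on, differed by -0.183 (limma adjusted p = 0.0367), lost without any 1 of 10 libraries, all but ERT2 WT replicate 2 and Cre-ERT2 KO replicate 3.

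By list, the called genes were 1 of 20 chaperones and cofactors (5%), 1 of 22 receptor-induced genes (4.55%) and 2 of 14 α-arrestin and thioredoxin genes (14.3%). In the LKB1-AMPK list 3 of 36 were called (8.33%) and in the endocannabinoid list 0 of 10, against 4.53% of all genes. Among the markers of other cell types, also named after their values were seen, Cd5 differed by 0.506 (limma adjusted p = 1.96e-04) and Lyz2 by 0.243 (limma adjusted p = 0.0145), both also called without any single library. The count of 3 in the LKB1-AMPK list became 1 without ERT2 WT replicate 1, Cre-ERT2 WT replicate 3 or ERT2 KO replicate 2. The count of 2 in the α-arrestin list became 0 without ERT2 WT replicate 1, Cre-ERT2 WT replicate 3 or ERT2 KO replicate 3, and 1 without any other library but ERT2 WT replicate 3 and Cre-ERT2 KO replicate 3. Without ERT2 KO replicate 1 the chaperone count was 2. Groups of 3 libraries were not screened for single outlying values.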

How the results depend on the processing

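Of the values of single members under the alternatives, 708 kept their direction and side of the threshold, 15 lost and 12 gained a call, and 18 changed sign, none of them called. The cause of these changes was not tested. The number of all genes called for the difference of effects was 337 with a mean of at least 8, against 550 in the main fit. That filter removes Cnr2 and Prkaa1 and also lowers the number of genes tested, so these counts are not directly comparable. With only the groups compared, 934 genes and 1 member (Txnip) were called for β-catenin in the libraries labelled KO, against 1531 and 2 in the main fit. At an adjusted p under 0.01, 787 genes were called for β-catenin in WT (1443 in the main fit). There were 790 in the libraries labelled KO with 0 members (1531 in the main fit), and 240 for the difference (550 in the main fit). Leaving out each library gave 0 to 2 called members for β-catenin in the libraries labelled KO, and 0 to 1 for the difference, the latter being Txnip without ERT2 WT replicate 3.

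Quantile normalization turned Fkbp5 under β-catenin in the libraries labelled KO to -0.011 and Txnip at baseline to 0.033. Sign changes when 1 library was left out gave these ranges of the log2 difference. For β-catenin in WT they were -0.021 to 0.067 for Txnip and -0.062 to 0.031 for Tsc22d3. For β-catenin in the libraries labelled KO they were -0.0038 to 0.030 for Nr3c1, -0.032 to 0.041 for Fkbp5 and -0.15 to 0.41 for Prkaa1. They were -0.051 to 0.037 for Txnip at baseline, -0.28 to 0.23 for Prkaa1 with Cre-ERT2 and -0.024 to 0.014 for Cnr2 in the difference of effects.

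With the replicate number as a block, 1361, 1374, 7089, 7108 and 424 genes were called for β-catenin in WT, β-catenin in the libraries labelled KO, baseline, Cre-ERT2 and the difference, and the block changed no member's call. The numbers were not taken as pairing the libraries, since 2 of 18 same-numbered pairs had deviations correlated above 0.1 (range -0.091 to 0.31) and 6 of 12 libraries correlated best with their own number. Depth is unknown and limits precision by an amount that cannot be stated.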
